A study of Mus musculus with 6 samples.

Results

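The proteasome genes of cerebellar endothelium are the 50 genes of the deposited table whose symbol begins with Psm, a letter from a to g and a digit, out of 14437 genes listed. All 50 passed the filter on low values, at least 3 libraries with a normalised value of 10 or more, as did 14076 genes of the table. They comprised 8 subunits of the alpha ring, 7 constitutive subunits of the beta ring, 6 ATPases of the base, 11 other subunits of the regulatory particle, 3 further activators or inhibitors, 7 assembly chaperones and 5 immune genes (Psmb8, Psmb9, Psmb10, Psme1 and Psme2). The first 6 of these classes, 42 genes, are called constitutive here. Psme2b, a copy of Psme2, and 2 genes named after a proteasome gene as their binding partner, Psmc3ip and Psme3ip1, also match the symbol pattern and are given apart.

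Cells of C57BL6 mice at postnatal day 9 were compared between the wild-type genotype and the Ccm3 knock-out, with 3 libraries of 1 mouse each per genotype. Ccm3 denotes Pdcd10, whose loss causes cavernous malformations of brain vessels. Endothelial cells were taken from dissociated cerebellum with CD45 and CD31 beads, and total RNA was sequenced after removal of ribosomal RNA. The labels give neither the promoter of a Cre driver nor the deleted part of the gene nor any inducing agent. Values are reads divided by the authors' size factors, called normalised reads. The libraries held 11075769 to 21142333 recovered reads. Pdcd10 had 529, 522 and 689 normalised reads in wild-type mice 1, 2 and 3, against 230, 154 and 309 in knock-out mice 1, 2 and 3, with no overlap (fold 0.39, 95% interval 0.26 to 0.57, limma adjusted p = 0.0162). Without wild-type 1, 2 or 3 the adjusted p of Pdcd10 was 0.0511, 0.0605 and 0.0619. All 12 endothelial markers were listed, with a summed level of 132367 to 167175 normalised reads per library. Pericyte and smooth muscle markers, 10 of 10 listed, summed to 40589 to 80327 in wild-type and 41681 to 55016 in knock-out, so markers of other vessel cells were present too. Astrocyte markers (7 of 7 listed) summed to 5372 to 6366 in wild-type against 3070 to 3538 in knock-out, and platelet and erythroid markers (8 of 10) to 10024 to 19848 against 5564 to 6739. The part of astrocytes, platelets and erythroid cells in the values below was not tested. In bulk libraries fewer cells of a type and less RNA per cell cannot be told apart. The Y-linked genes summed to 1.49 normalised reads in wild-type 1 and to 813 to 4017 in the other libraries, so wild-type 1 stood apart. Oligodendrocyte markers (7 of 7) summed to 8884 in wild-type 3 against 1840 and 2088 in the other wild-type libraries and 1150 to 4308 in knock-out. Neuron markers (7 of 10) summed to 3172 in knock-out 3 against 922 and 1110 in the other knock-outs and 1766 to 1985 in wild-type. The part of these differences in the values below was not tested, and values without each library are given where a call changed.

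The proteasome is the barrel-shaped protease that degrades ubiquitin-tagged proteins. Its core particle is made of alpha rings, which form the gate, and beta rings, in which Psmb5, Psmb6 and Psmb7 carry the active sites, and the regulatory particle binds, unfolds and feeds in the substrate. Under interferon, cells exchange the 3 catalytic subunits for Psmb8, Psmb9 and Psmb10 and make more of the Psme1 and Psme2 activator, which changes the peptides offered to major histocompatibility complex (MHC) class I molecules. The exchanged form is the immunoproteasome. It is abundant in leukocytes and inducible in endothelium.

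The promoters below are shown because Psmb8 was the single proteasome gene past the test threshold, Psmb9 is its neighbour, Psme1 is the most abundant immune gene, and Psmb5 is the constitutive subunit whose place Psmb8 takes. Each is the RefSeq window (GRCm38.p6) from 250 bases before the start that RefSeq gives to 50 bases from it on, 5′ to 3′ on the strand of the gene. Gene positions elsewhere are those of GENCODE M21, whose outermost starts lie further upstream for Psmb8, Psmb9 and Psme1, so these 3 windows lie wholly within the GENCODE genes. Capitals mark matches, on either strand, to GAAA, any 2 bases and GAAA (interferon-stimulated response element), TTCNNNGAA (gamma-activated site) or TGACNNNGC (antioxidant response element, bound by Nfe2l1 among others).
Psmb8, chr17:34197945-34198244, plus strand: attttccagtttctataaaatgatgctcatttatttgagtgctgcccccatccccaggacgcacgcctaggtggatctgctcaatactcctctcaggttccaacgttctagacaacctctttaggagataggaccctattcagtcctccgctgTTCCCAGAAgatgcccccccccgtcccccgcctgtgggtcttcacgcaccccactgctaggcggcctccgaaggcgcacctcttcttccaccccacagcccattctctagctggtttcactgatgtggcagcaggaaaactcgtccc
Psmb9, chr17:34187281-34187580, minus strand: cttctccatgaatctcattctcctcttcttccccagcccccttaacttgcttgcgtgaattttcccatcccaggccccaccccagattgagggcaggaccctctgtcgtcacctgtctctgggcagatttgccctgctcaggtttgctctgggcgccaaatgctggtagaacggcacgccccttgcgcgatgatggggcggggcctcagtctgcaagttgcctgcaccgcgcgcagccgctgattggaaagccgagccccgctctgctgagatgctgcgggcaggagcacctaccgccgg
Psme1, chr14:55578244-55578543, plus strand: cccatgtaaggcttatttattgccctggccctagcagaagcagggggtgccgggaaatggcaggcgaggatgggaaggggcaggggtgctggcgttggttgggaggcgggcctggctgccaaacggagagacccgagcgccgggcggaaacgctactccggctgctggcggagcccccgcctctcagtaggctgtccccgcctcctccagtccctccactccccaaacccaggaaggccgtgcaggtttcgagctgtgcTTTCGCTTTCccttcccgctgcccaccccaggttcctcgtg
Psmb5, chr14:54617946-54618245, minus strand: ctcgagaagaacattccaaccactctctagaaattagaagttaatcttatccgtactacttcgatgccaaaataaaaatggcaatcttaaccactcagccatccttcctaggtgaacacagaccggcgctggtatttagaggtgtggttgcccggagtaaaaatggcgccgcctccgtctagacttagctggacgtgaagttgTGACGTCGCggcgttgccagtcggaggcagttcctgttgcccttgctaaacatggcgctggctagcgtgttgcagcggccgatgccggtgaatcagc
The Psmb8 window held the gamma-activated pattern at bases 154 to 162, counted from its 5′ end with the RefSeq start at base 251. The Psme1 window held the interferon pattern at bases 260 to 269, just after the start. In the Psmb5 window the antioxidant pattern lay at bases 204 to 212. The Psmb9 window held none of the 3, and it overlapped the window of Tap1, a peptide transporter gene read in the opposite direction, by 275 bases. Among the 42 proteasome genes with a RefSeq window, 5 held the interferon pattern (Psmb3, Psmd4, Psmd9, Psme1 and Psmg4), against 3.44% of all 32851 windows of this length. The gamma-activated pattern was found in 3 (Psmb8, Psmd2 and Psmg1), against 8.30% of all windows, and the antioxidant pattern in 6 (Psmb5, Psmb6, Psmc6, Psmd12, Psmd9 and Psme4), against 12.4%. These are matches of letters and not measured binding.

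Among all genes tested, 507 rose (3.60%) and 372 fell (2.64%), 6.24% in either direction, by limma on log2(value + 1) with Benjamini-Hochberg adjustment over all 14076 genes and a limit of 0.05. Of the 50 proteasome genes 1 rose, none fell and 49 were not called, a share of rises near that of the whole table. At an unadjusted p under 0.05, 2 were higher (10.1% of all genes) and none was lower (8.83%), and edgeR and DESeq2 on the recovered reads also called 1 rise and no fall. The median log2 change was 0.08 over the 50 genes and -0.01 over all genes tested. The groups did not overlap for 5 proteasome genes with higher knock-out values (12.8% of all genes) and for 3 with lower ones (12.8%).

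**Figure D1:**
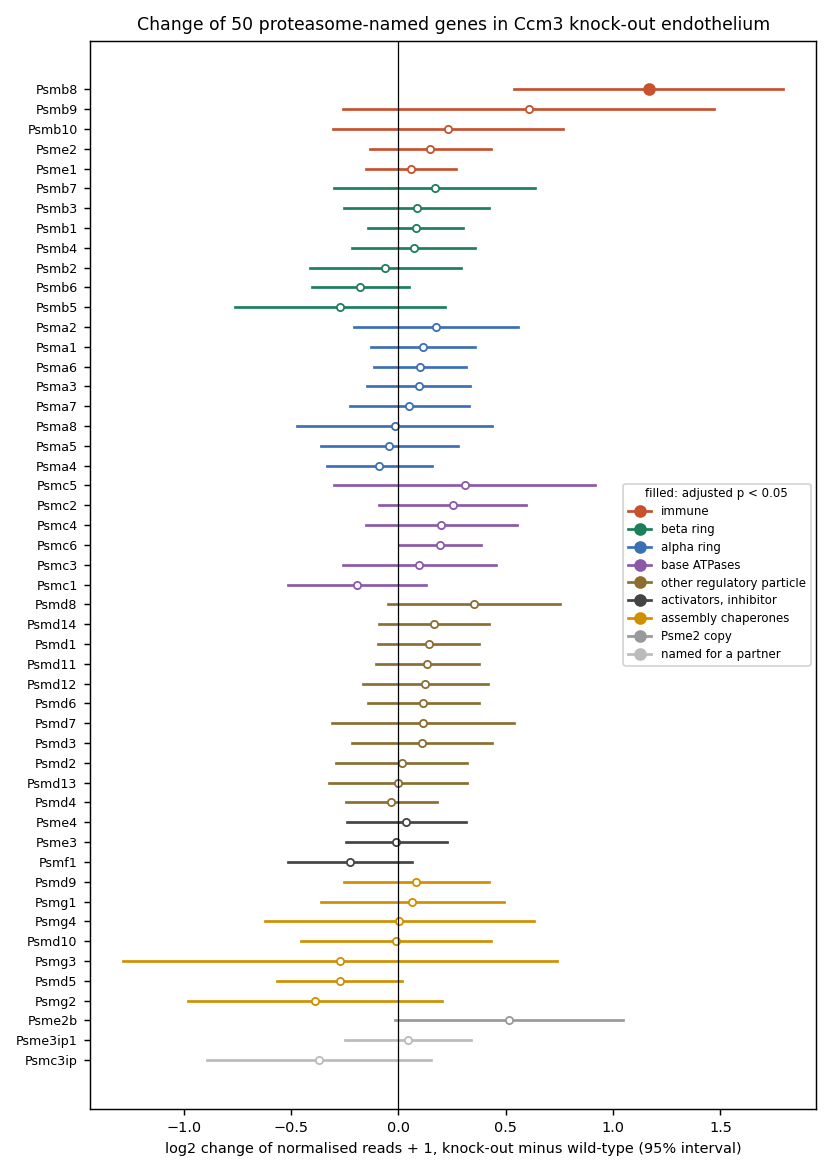
Log2 change (knock-out minus wild-type, of normalised reads + 1) of the 50 genes on the x axis, with 95% intervals from limma as lines and colours for the classes. Psmb8, at 1.17, is the single filled point (adjusted p under 0.05), and the other intervals, apart from that of Psmc6, include 0.

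Psmb8 was the gene that rose. It encodes the immune subunit with chymotrypsin-like activity (ENSMUSG00000024338, chromosome 17, 34197721 to 34201454 of GRCm38, plus strand, within the MHC region). It had 39.4, 44.1 and 26.2 normalised reads in wild-type mice 1, 2 and 3, against 79.2, 99.9 and 68.1 in knock-out mice 1, 2 and 3. Every knock-out library lay above every wild-type library. The means were 36.5 ± 9.26 and 82.4 ± 16.1 (SD, n = 3), a fold of 2.24 (95% interval 1.45 to 3.47, limma adjusted p = 0.0439). The value rests on few reads, with 53, 66 and 29 recovered in wild-type against 84, 153 and 60 in knock-out. The call was close to the limit. Leaving out wild-type 1, 2 or 3 ended it (adjusted p = 0.112, 0.10 and 0.124), as did leaving out knock-out 1 or 2 (0.0871 and 0.138), with log2 changes between 0.95 and 1.31. Of the exons of Psmb8, 14.7% overlap an antisense gene, Gm20496, which is not in the table analysed here, and no source used here gives the strand setting of the counting.

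Leukocytes carry the immunoproteasome, so their markers are set beside Psmb8. Of 15 microglia and macrophage markers 12 were listed, with a summed level of 1142 to 1216 normalised reads in wild-type and 1049 to 1238 in knock-out, and Aif1, Tyrobp and Pf4 were not among the genes listed. The level put in the fit was not this sum but the mean log2(value + 1) of the 8 markers that passed the filter. With it, Psmb8 had a log2 change of 1.00 (limma adjusted p = 0.0932). With the pericyte level, made likewise, in its place the change was 1.37 (adjusted p = 0.0204). Ptprc, among the 12 listed markers, encodes CD45, the leukocyte antigen that the CD45 beads bind, and was named after its values were seen. It had 72.0, 37.4 and 47.9 normalised reads in the wild-type libraries and 80.2, 101 and 154 in knock-out 1, 2 and 3. Ptprc did not pass the test (fold 2.11, 1.26 to 3.52, adjusted p = 0.104), and its groups did not overlap. The summed level of the 12 markers was lowest in knock-out 3 (1049), where Ptprc was highest. Of 14 lymphocyte and granulocyte markers 2 were listed, Cd79a and Lcn2, with a sum of 19.0 to 28.2 in wild-type and 29.5 to 46.2 in knock-out. Beyond this fit, the part of leukocytes in the value of Psmb8 was not tested.

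The other immune genes were not called. Psmb9, the immune subunit that takes the place of Psmb6 (chromosome 17, 34181987 to 34187764 of GRCm38, minus strand, with 5.79% of its exons overlapping Tap1 on the other strand), had 13.4, 13.3 and 9.93 normalised reads in the wild-type libraries and 16.0, 28.7 and 14.8 in the knock-outs. Knock-out 2 stood above the rest, and although the groups did not overlap, the counts were 11 to 20 reads in wild-type and 13 to 44 in knock-out. The fold was 1.52 with an interval from 0.84 to 2.77 (adjusted p = 0.450). Tap1 had 161 to 253 normalised reads and was likewise highest in knock-out 2. With the strand setting not given, the level of Psmb9 is uncertain. Psmb10, which replaces Psmb7, had 75.0, 65.4 and 57.8 in the wild-type libraries and 66.0, 101 and 69.2 in the knock-outs. Its groups overlapped (fold 1.17, 0.81 to 1.70, adjusted p = 0.679).

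The activator genes were steadier. Psme1 had 1966, 1731 and 1808 normalised reads in the wild-type libraries and 1817, 1910 and 2005 in the knock-outs, and Psme2, whose product pairs with that of Psme1, had 293, 261 and 248 in the wild-type libraries and 279, 302 and 308 in the knock-outs. Both overlapped between the groups, with folds of 1.04 (0.90 to 1.20, adjusted p = 0.804) and 1.11 (0.91 to 1.35, adjusted p = 0.593). Psme2b, on chromosome 11, had 69.8, 59.4 and 43.3 in the wild-type libraries and 86.8, 75.1 and 81.7 in the knock-outs, without overlap (fold 1.43, 0.99 to 2.06, adjusted p = 0.279). Of the 50-base windows of the longest coding transcript of Psme2, 59.3% recur exactly in Psme2b, so the division of reads between these genes is uncertain. Of the exons of Psme2b, 4.90% overlap 9930111J21Rik1 on the same strand. That gene had 77.2, 89.4 and 58.7 normalised reads in the wild-type libraries and 123, 108 and 95.4 in the knock-outs. Its part in the value of Psme2b was not tested.

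**Figure D2:**
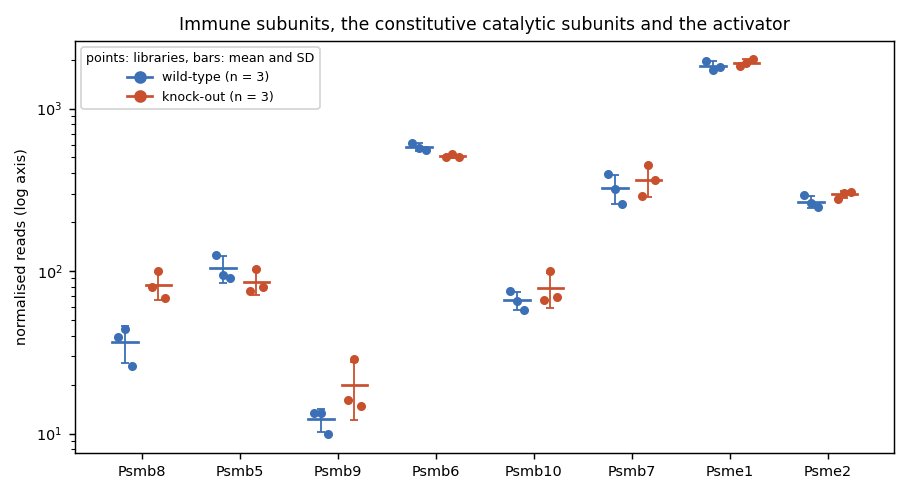
Normalised reads (log axis) of the immune genes and of the constitutive catalytic subunits, with a point per library and bars for the mean and SD of 3 libraries. The knock-out libraries of Psmb8 (68.1 to 99.9) lie above its wild-type libraries (26.2 to 44.1), while those of Psmb10, Psme1 and Psme2 overlap.

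The constitutive catalytic subunits did not pass the test. Psmb5, with chymotrypsin-like activity, had 126, 94.8 and 91.2 normalised reads in the wild-type libraries and 75.4, 103 and 79.5 in the knock-outs (fold 0.83, 0.59 to 1.16, adjusted p = 0.575). Psmb6, with caspase-like activity, had 616, 569 and 553 in the wild-type libraries and 501, 529 and 505 in the knock-outs. The groups of Psmb6 did not overlap, with a small difference that was not called (fold 0.88, 0.76 to 1.03, adjusted p = 0.389). Psmb7, with trypsin-like activity, ranged from 259 to 394 in wild-type and from 289 to 447 in knock-out and overlapped (fold 1.13, 0.81 to 1.56, adjusted p = 0.739). Of its exons, 11.8% overlap Nek6 on the other strand, which had 400 to 562 normalised reads. With the strand setting not given, the level of Psmb7 is uncertain. Of the 50-base windows of Psmb5, 57.1% recur in transcripts of other genes, 49.4% in Gm3375 alone, so its level could be understated or mixed, while no window of Psmb8 recurs elsewhere.

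Each immune subunit was then set against the constitutive subunit whose place it takes, as a log2 ratio within a library. For Psmb8 to Psmb5 the ratio was -1.66, -1.09 and -1.76 in wild-type 1, 2 and 3 against 0.07, -0.05 and -0.22 in knock-out 1, 2 and 3. The knock-out libraries thus held about as many reads of Psmb8 as of Psmb5, and all lay above the wild-type ones. The difference of the means was 1.44 (-1.50 ± 0.36 against -0.07 ± 0.15, SD, n = 3, exact two-sided permutation test p = 0.1, adjusted over 3 ratios 0.15). With 3 libraries against 3 the smallest p this test can give is 0.1.

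For Psmb9 to Psmb6 the ratio was -5.42, -5.31 and -5.66 in wild-type against -4.88, -4.16 and -5.01 in knock-out, again without overlap. The difference was 0.79 (exact permutation p = 0.1, adjusted 0.15, n = 3 each). For Psmb10 to Psmb7 it was -2.38, -2.28 and -2.15 in wild-type against -2.12, -2.14 and -2.37 in knock-out, and the groups overlapped. The difference was 0.06 (exact permutation p = 0.5, adjusted 0.5, n = 3 each). None of the 3 differences could pass a limit of 0.05 in this exact test.

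**Figure D3:**
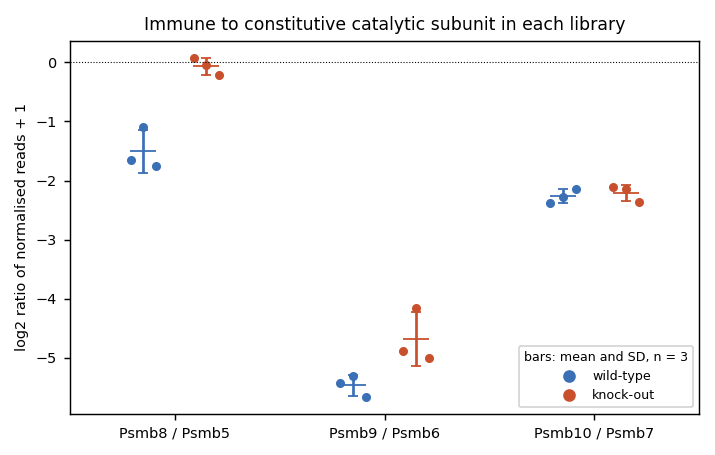
Log2 ratio of normalised reads + 1 of each immune subunit to the constitutive subunit whose place it takes, with a point per library and the mean and SD of 3 libraries per genotype. The Psmb8 to Psmb5 ratio lies between -1.76 and -1.09 in wild-type and between -0.22 and 0.07 in knock-out, and the Psmb10 to Psmb7 ratio overlaps.

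Levels of different genes were compared per kb of exon. In wild-type, Psme1 was the highest of the 50 genes at 831 ± 54.4 normalised reads per kb (SD, n = 3), and Psmb9 the lowest at 3.34 ± 0.54. The median of the 42 constitutive genes was 201. Below it lay Psme2 at 152 ± 12.9, Psmb10 at 38.7 ± 5.06 and Psmb8 at 10.8 ± 2.74, so the immune class held both the first and the last place of the order. Psme1 and its next lower neighbour Psmc5 (737 ± 166) did not differ beyond their spread, nor did Psmb9 and its next higher neighbour, the chaperone gene Psmg3 (3.55 ± 0.38). Per kb of the longest coding transcript Psme1, Psmb8, Psmg3 and Psmb9 kept ranks 1, 48, 49 and 50. On that length Psme1 stood further from the next gene, at 1650 ± 108 against 926 ± 63.4 for Psma4 (SD, n = 3). Of the 50-base windows of Psme1 14.1% recur in other genes, of those of Psma4 25.6% and of those of Psmg3 22.7%, so these levels are uncertain.

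Within the pair, Psmb8 made up 7.66, 11.0 and 7.09% of the summed Psmb8 and Psmb5 level per kb of exon in wild-type 1, 2 and 3 against 21.8, 20.5 and 18.6% in knock-out 1, 2 and 3. The means were 8.58 ± 2.11% and 20.3 ± 1.64% (SD, n = 3). Per kb of the longest coding transcript they were 16.3 ± 3.64% and 34.6 ± 2.30%, so the level of this share depends on the length used. The order of the libraries cannot change with it, because a gene has the same length in every library. Psmb9 was 1.06 ± 0.14% of its pair with Psmb6 in wild-type and 1.93 ± 0.67% in knock-out per kb of exon. Psmb10 was 29.2 ± 1.63% and 30.1 ± 2.00% of its pair with Psmb7 per kb of exon, but 15.4 ± 1.03% and 16.0 ± 1.26% per kb of the longest coding transcript. These shares describe RNA and not assembled particles.

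**Figure D4:**
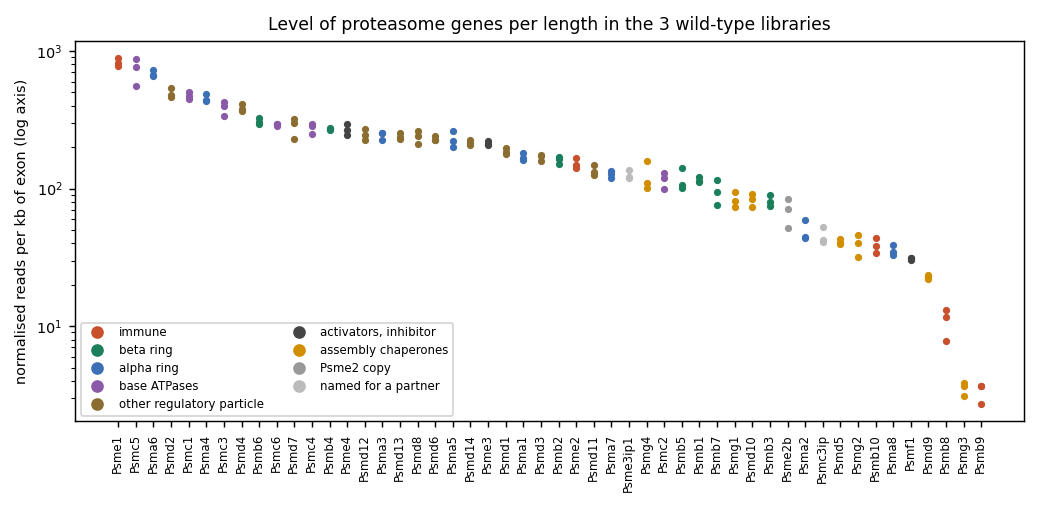
Normalised reads per kb of exon (log axis) of the 50 genes in the 3 wild-type libraries, a point per library, ordered by the mean and coloured by class. Psme1 stands first at 831 and Psmb9 last at 3.34, with Psmb8 (10.8) and Psmg3 (3.55) just above it.

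None of the 42 constitutive genes rose or fell. Their median log2 change was 0.08 with folds from 0.76 to 1.28. In the knock-out mean 27 were higher and 15 lower, against 6902 higher and 7174 lower of all 14076 genes tested. An unadjusted p under 0.05 was found for 1 (Psmc6, higher, 10.1% of all genes). The 95% interval of the fold lay within 1.5-fold in either direction for 34 of the 42 and within 2-fold for 41, which bounds the change these libraries leave room for. Over all 14076 genes these counts were 5909 and 9985. Among the 42 the exception at 2-fold was Psmg3, which was also the gene nearest to the filter, with 11.1, 10.7 and 9.03 normalised reads in the wild-type libraries and 4.71, 10.4 and 11.4 in the knock-outs.

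In the alpha ring, which gates the core particle, all 8 genes had intervals within 1.5-fold. The smallest p values were those of Psma6 (fold 1.07, 0.92 to 1.24, adjusted p = 0.640) and Psma1 (1.08, 0.91 to 1.28, adjusted p = 0.642). Psma8, an alpha subunit otherwise known from testis, averaged 88.3 ± 7.69 normalised reads in wild-type and 87.8 ± 14.7 in knock-out (SD, n = 3). The 7 constitutive beta subunits ranged in fold from 0.83 (Psmb5) to 1.13 (Psmb7), and 5 had intervals within 1.5-fold. Exact 50-base windows shared with other genes reached at least 10% in 12 of the 50 genes. These were Psma3, Psma4, Psma5, Psmb3, Psmb5, Psmc1, Psmd2, Psmd11, Psme1, Psme2, Psme2b and Psmg3. Their levels are uncertain where reads were divided or dropped.

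The ATPases of the base, which unfold the substrate and open the gate, had a median log2 change of 0.20, and none was called. Of the 6, 5 were higher, against 6902 of all 14076 genes tested. Psmc6 had 1034, 1033 and 996 normalised reads in the wild-type libraries and 1183, 1132 and 1185 in the knock-outs. Its groups did not overlap, with a fold of 1.14 (1.00 to 1.30, adjusted p = 0.261). Psmc5 varied most among the ATPases, with 1230, 1076 and 776 in the wild-type libraries and 842, 1705 and 1363 in the knock-outs, a within-group SD of 0.44 on the log2 scale against a median of 0.16 over the constitutive genes and 0.21 over all genes tested. Psmc5, Psma8, Psme3 and, above, Ptprc were named after their values were seen. Psmc2 had a fold of 1.19 (0.94 to 1.51, adjusted p = 0.422).

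The other regulatory particle subunits, which bind ubiquitin chains, remove them and scaffold the lid, had a median log2 change of 0.12, and none was called. Of the 11, 9 were higher, against 6902 of all 14076 genes tested. Psmd8, a lid subunit, had 802, 741 and 650 normalised reads in the wild-type libraries and 1046, 1091 and 707 in the knock-outs. Knock-out 3 fell within the wild-type range (fold 1.28, 0.97 to 1.69, adjusted p = 0.327), and without knock-out 3 Psmd8 was called (log2 change 0.55, adjusted p = 0.0357). Psmd14, the deubiquitinase of the lid, had 634, 589 and 606 in the wild-type libraries and 647, 634 and 779 in the knock-outs, where the lowest knock-out value lay just above the highest wild-type one (fold 1.12, 0.94 to 1.34, adjusted p = 0.499).

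The inhibitor gene Psmf1 had 195, 201 and 203 normalised reads in the wild-type libraries and 172, 166 and 175 in the knock-outs. The groups did not overlap and the libraries of each lay close together, but the difference was not called (fold 0.86, 0.70 to 1.05, adjusted p = 0.398). Psme4, a large nuclear activator, had a fold of 1.03 (0.85 to 1.24, adjusted p = 0.920), and Psme3, another nuclear activator, one of 0.99 (0.84 to 1.17, adjusted p = 0.983). Among the assembly chaperones Psmd5, which acts in the assembly of the base, had 312, 290 and 288 in the wild-type libraries and 225, 272 and 241 in the knock-outs. Its groups did not overlap (fold 0.83, 0.68 to 1.01, adjusted p = 0.292). Psmg2, a chaperone of the alpha ring, had a fold of 0.76 (0.51 to 1.15, adjusted p = 0.486). Psmc3ip, a meiotic recombination factor, had a fold of 0.77 (0.54 to 1.11, adjusted p = 0.447), and Psme3ip1 one of 1.03 (0.84 to 1.26, adjusted p = 0.906).

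The constitutive genes also differed between libraries of the same genotype. Their median log2 deviation from the wild-type mean was 0.08, -0.02 and -0.07 in wild-type 1, 2 and 3 against -0.06, 0.16 and 0.06 in knock-out 1, 2 and 3. Over all genes tested the medians of the libraries lay between -0.02 and 0.01. Of the 42 genes 33 lay above the wild-type mean in knock-out 2 but 16 in knock-out 1, and 35 in wild-type 1 but 7 in wild-type 3. The ATPases had medians of 0.12, 0.04 and -0.17 in wild-type against -0.13, 0.40 and 0.20 in knock-out. The median of the 5 immune genes was likewise highest in knock-out 2 (0.61, against 0.07 and 0.21 in knock-out 1 and 3) and lowest in wild-type 3 (-0.18), although Psme1 and Psme2 were highest in knock-out 3 and Psme1 was lowest in wild-type 2. Psmb8 was likewise highest in knock-out 2 (1.46) and lowest in wild-type 3 (-0.43). It differed in knock-out 1, which was low for the ATPases but lay above all wild-type libraries for Psmb8 (1.13).

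**Figure D5:**
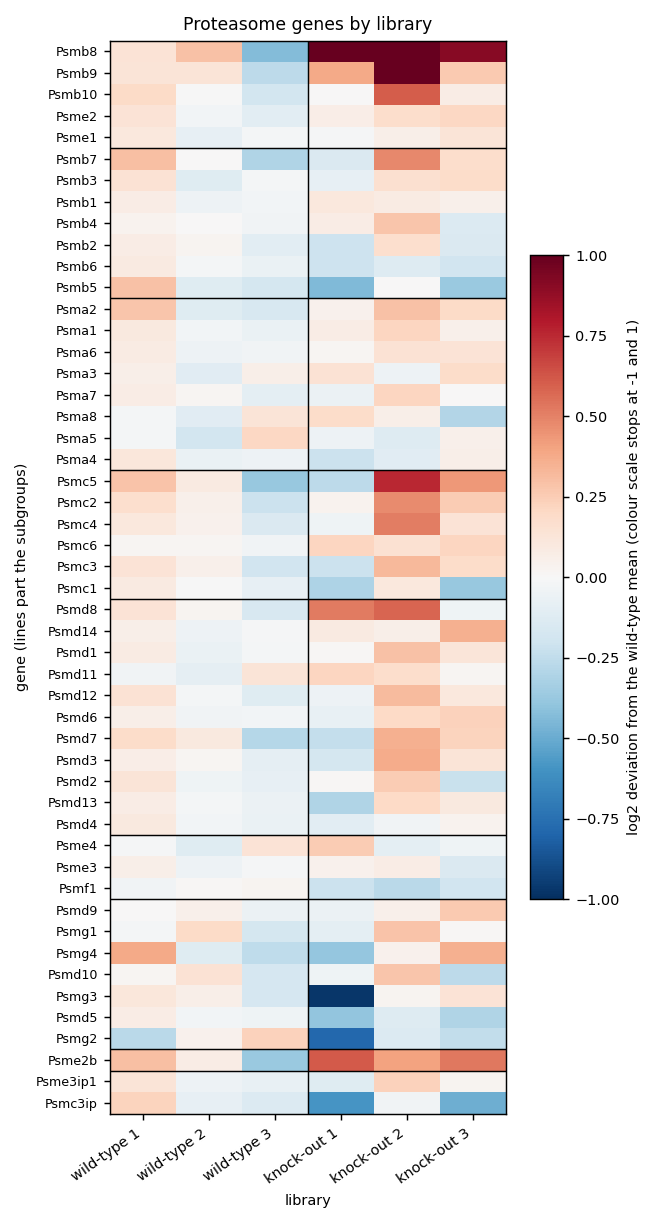
Log2 deviation of each gene from its wild-type mean (colour, stopped at -1 and 1) in the 6 libraries on the x axis, with lines between the classes. Psmb8 is dark in all 3 knock-out libraries, while the ATPases are raised in knock-out 2 (median 0.40) and low in wild-type 3 (-0.17).

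Other genes of the proteasome pathway were taken from a list of assembly factors, ubiquitin receptors, shuttle factors, ubiquitin genes and regulators. Of 28 tested, none rose or fell by limma (6.24% of all genes). At an unadjusted p under 0.05, 3 were higher and 2 lower, shares near those of all genes (10.1% and 8.83%), and the median log2 change was 0.00. Nfe2l1, the transcription factor that raises proteasome subunit genes when proteasome activity is short, had 3135, 2910 and 2923 normalised reads in the wild-type libraries and 3299, 3720 and 3213 in the knock-outs. Its groups did not overlap, and it was not called (fold 1.14, 0.98 to 1.32, adjusted p = 0.326). Pomp, the maturation factor of the core particle, had 1292, 1302 and 1307 in the wild-type libraries and 1101, 1138 and 1081 in the knock-outs. These groups did not overlap either (fold 0.85, 0.75 to 0.97, adjusted p = 0.163). Zfand2a, a stress-induced partner of the proteasome, had a fold of 1.44 (adjusted p = 0.131), Rps27a, a ubiquitin fusion gene, one of 0.85 (adjusted p = 0.196) and Nploc4, a cofactor of the unfoldase Vcp, one of 1.15 (adjusted p = 0.240).

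Downstream of the immunoproteasome in antigen processing, 2 of 12 genes tested rose (3.60% of all genes) and 10 were not called in either direction. H2-T23 and H2-D1, MHC class I genes with close relatives among which reads can be split, rose 1.81-fold (adjusted p = 0.0190) and 1.48-fold (adjusted p = 0.0323). B2m (fold 1.39, adjusted p = 0.105) and H2-K1 (1.56, adjusted p = 0.161) were also higher without overlap but were not called. At an unadjusted limma p under 0.05, 4 of the 12 were higher (10.1% of all genes) and none was lower (8.83%). The groups did not overlap for 5 with higher knock-out values (12.8% of all genes) and for none with lower ones (12.8%). Leaving out 1 library at a time, the adjusted p of H2-T23 ranged from 0.00622 to 0.0932 and that of H2-D1 from 0.0125 to 0.121, and leaving out any 1 of the wild-type libraries or knock-out 2 ended both calls. Leaving out knock-out 1 also ended that of H2-D1 (0.0598). The Y-linked level in the fit ended both (0.0645 for H2-T23 and 0.0890 for H2-D1), and the microglia and macrophage level ended that of H2-T23 (0.0564). Tap1, which shares its start region with Psmb9, had 163, 161 and 199 normalised reads in the wild-type libraries and 172, 253 and 178 in the knock-outs. Its groups overlapped (fold 1.14, 0.84 to 1.54, adjusted p = 0.670), as did those of Tap2, the next gene after Psmb8 (fold 1.24, 0.97 to 1.58, adjusted p = 0.321).

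Of 23 interferon pathway genes tested, 1 (Irf1) rose, a share near the 3.60% of all genes, and 22 were called in neither direction. Irf1, a transcription factor that induces immunoproteasome genes, had 470, 564 and 477 normalised reads in the wild-type libraries and 842, 860 and 754 in the knock-outs. The groups did not overlap (fold 1.63, 1.36 to 1.95, adjusted p = 0.0108, but 0.0557 without wild-type 1). Irf2 had a fold of 1.18 (adjusted p = 0.173), and the interferon-induced GTPases Gbp7 and Gbp3 were at folds of 0.85 (adjusted p = 0.274) and 0.82 (0.356). Gbp2, Igtp and Irgm1, the other GTPases of this list, were named after their values were seen. They were at folds of 1.18 (adjusted p = 0.398), 1.38 (0.383) and 1.10 (0.674). Of the 23 genes 13 were higher and 10 lower.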

How the data were processed

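Groups and replicate numbers come from the sample titles. The values as deposited are a normalised signal, namely the reads of a gene over a size factor that the authors computed for each library. Trim Galore, STAR 2.5.3a, GRCm38 and DESeq2 are named in the submitters' processing notes. No source used here gives the read counter, the annotation or the strand setting. Within each library 100% of values were whole multiples of 1 step (tolerance 0.01 of a read), so whole reads were recovered. On these, edgeR called 897 genes and DESeq2 1373. A gene with 3 reads has a value of 1.96 to 3.41. Replicates differed far beyond sampling noise (chi-square per degree of freedom 14.1 to 58.5), so each library was counted.

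On the log2(value + 1) scale each gene was fitted in limma 3.58.1, under R 4.3.3, with genotype as the term (mean-variance trend, two-sided), tested on simulated data. Fold changes on this scale understate those of low genes. Intervals and p-values cover the spread between libraries. edgeR 4.0.16 and DESeq2 1.42.0 were alternatives, as were other filters, pseudocounts, scalings, weights, covariates, the replicate block and leaving out each library. Positions, exon lengths and transcripts come from GENCODE M21 (GRCm38).

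The numbers 1 to 3 are shared by both groups. Deviations of same-numbered libraries correlated at 0.10, 0.11 and 0.19. Wild-type 1 correlated more with knock-out 2 (0.30), and wild-type 2 more with knock-out 3 (0.19) than with knock-out 2 (0.11). These values do not single out the same-numbered libraries as pairs, so the replicate block rests on a possible pairing by number only. Named genes are the immune and catalytic genes, every called member, the 2 smallest p per class, the extremes per length, the gene nearest the filter, and of each pathway list the 4 smallest p plus 6 fixed genes, of which 1 is not reported here. Members and lists were chosen with earlier results of these data known.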

Additional observations from a re-analysis of the deposited data

How the results depend on the processing

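The single proteasome gene called, Psmb8, was higher in the knock-out under all 20 alternatives and called in 12. No proteasome gene was called with quantile scaling (0, Psmb8 adjusted p = 0.0541, log2 change 1.14). The same held with the microglia and macrophage level (0, 0.0932, 1.00) and with that of the Y-linked genes (0, 0.0969, 1.23). In the main fit the log2 change of Psmb8 was 1.17. The adjusted p of Psmb8 was lowest with DESeq2 (0.00778). Leaving out 1 library gave 0 to 2 risen proteasome genes, the second being Psmd8, and none fell under any alternative. The count of changed genes, 879, was 540 with the microglia and macrophage level, 457 with the Y-linked level, 1373 with DESeq2 and 283 to 1032 without 1 library. The cause was not tested. With the replicate block 769 genes changed and Psmb8 was called (adjusted p = 0.0339), and the block changed no other call among the proteasome genes. The ratio differences kept their sign throughout, with ranges without 1 library of 1.31 to 1.64 (Psmb8 to Psmb5), 0.52 to 0.95 (Psmb9 to Psmb6) and 0.0039 to 0.14 (Psmb10 to Psmb7). With the replicate block their exact sign-flip p values were 0.25, 0.25 and 0.75, where 0.25 is the smallest possible. Depth was low for Psmb9 (11 to 44 reads per library) and Psmg3 (5 to 16 reads).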
